A study of Neurospora crassa with 2 samples.

Results

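The genes described here are 5 genes of gluconeogenesis and the glyoxylate cycle in the filamentous fungus Neurospora crassa, out of 9730 genes with a value. They were chosen by locus tag: acu-6 (NCU09873), fbp-1 (NCU04797), acu-3 (NCU04230), acu-9 (NCU10007) and the acetate regulator gene acu-15 (NCU06656). RNA was sequenced from mycelia of 2 strains, with 1 library each. The Δ3βGΔncw-1 strain lacks the gene of the cell wall protein NCW-1 and 3 β-glucosidase genes. Its control, Δ3βG, lacks the same 3 β-glucosidase genes, whose products split cellobiose into glucose, and keeps ncw-1. Both were grown for 20 h in the medium that the labels call MM and then held for 4 h in Vogel's salts with 1% cellobiose, a disaccharide released from cellulose. The comparison asks how these transcripts differ when ncw-1 is missing from a strain that splits cellobiose poorly.

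Fungi that live on acetate, fatty acids or other carbon sources without sugars must build sugar phosphates themselves. The glyoxylate cycle, housed in peroxisome-like organelles called glyoxysomes in Neurospora, joins isocitrate cleavage to malate synthesis and so bypasses the tricarboxylic acid cycle reactions that release carbon dioxide. Gluconeogenesis then turns oxaloacetate into phosphoenolpyruvate and runs glycolysis backwards up to hexose phosphate. In fungi these genes are typically induced by acetate and repressed by glucose.

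All values are RPKM, reads per length of gene model and per size of the library, so levels of different genes can be set side by side. The column totals behind them were recovered as 20019350 reads for Δ3βGΔncw-1 and 20510798 reads for Δ3βG. Because each genotype had only 1 library, nothing shows the spread between cultures, and genotypes were not tested against each other. Each 95% interval below is an exact interval from recovered whole reads, which are not independent molecules, and it covers counting error only. Log2 ratios divide RPKM + 1 in Δ3βGΔncw-1 by RPKM + 1 in Δ3βG, a scale on which differences of low genes come out too small. The RPKM of ncw-1 was 2.62 in Δ3βGΔncw-1 and 435 in Δ3βG, as the labels have it. The genotype labels of both libraries carry a final a, yet the mat A genes matA-1 (NCU01958) and ccg-4 (NCU02500) had 15.4 and 87.9 RPKM in the library labelled Δ3βGΔncw-1 and were listed at 0 in Δ3βG. The libraries also differed in eas (NCU08457), the conidial hydrophobin gene, with 1746 RPKM in Δ3βGΔncw-1 and 60350 RPKM in Δ3βG. The part of mating type or of conidiation in the values below was not tested.

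The 4 enzyme genes of both pathways were lower in Δ3βGΔncw-1, by 3.14-fold to 6.35-fold, and the regulator gene acu-15 was not lower. All 5 genes reached the minimum of 10 RPKM in either library that was set for counting genes. Of these 5, 4 were at least 2-fold lower on the log2 scale, which was true of 664 of all 5988 genes with that minimum, or 11.1%. None of the 5 was at least 2-fold higher, against 8.08% of all genes. At 4-fold or more, 2 of the 5 were lower as deposited, acu-6 and acu-9, against 2.12% of all genes. Relative to the median gene only acu-6 was, and the share of all genes at that limit was not counted. The median log2 ratio was −1.90 over the 5 genes and −0.32 over the 5988 genes. Counted relative to that median gene, the same 4 enzyme genes remained at least 2-fold lower, while over all genes 676 were then higher and 343 lower, against 484 higher and 664 lower as deposited. The 4 enzyme genes summed to 147.9 RPKM in Δ3βGΔncw-1 and 715 RPKM in Δ3βG, 4.84-fold lower. Fewer cells using these pathways and less RNA per cell cannot be told apart in such whole cultures.

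**Figure D1:**
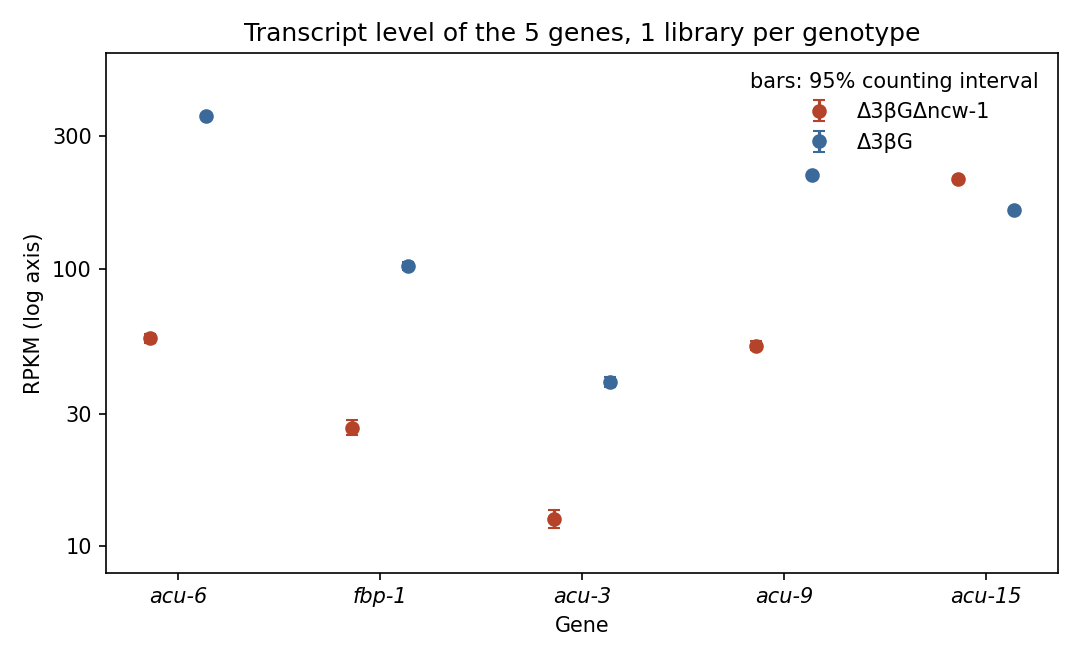
RPKM on a log axis for each of the 5 genes in the Δ3βGΔncw-1 library and in the Δ3βG library, 1 library each, with 95% counting intervals as bars (mostly smaller than the points). The points of acu-6, fbp-1, acu-3 and acu-9 lie lower in Δ3βGΔncw-1 and those of acu-15 slightly higher, at 211 against 163 RPKM.

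Gluconeogenesis begins with phosphoenolpyruvate carboxykinase, the product of acu-6, which makes phosphoenolpyruvate from oxaloacetate. The level of acu-6 was 56.0 RPKM (54.0 to 58.2) in Δ3βGΔncw-1 and 356 RPKM (351 to 361) in Δ3βG. These values rest on 2747 reads in Δ3βGΔncw-1 and 17877 reads in Δ3βG over a model of 2449 bases. The difference was 6.35-fold lower (interval 6.10 to 6.61), a log2 ratio of −2.65, or −2.33 relative to the median gene. Only 53 of the 5988 genes had a lower log2 ratio. In order of level acu-6 was gene 1335 of 9730 in Δ3βGΔncw-1 and gene 136 in Δ3βG, where it stood among the most abundant transcripts.

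The last gluconeogenic step described here is that of fructose bisphosphatase, encoded by fbp-1, which removes a phosphate from fructose bisphosphate. Its transcript stood at 26.7 RPKM (25.0 to 28.5) in Δ3βGΔncw-1 and 103 RPKM (99.3 to 106) in Δ3βG. The fold was smaller than for acu-6, at 3.84-fold lower (3.57 to 4.14), and the 2 intervals did not overlap. On the log2 scale it was −1.90, or −1.58 relative to the median gene, with 145 genes lower still. Within the pathway the RPKM ratio of acu-6 to fbp-1 was 2.10 in Δ3βGΔncw-1 and 3.47 in Δ3βG.

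Isocitrate lyase, encoded by acu-3, opens the glyoxylate cycle by splitting isocitrate into glyoxylate and succinate. Its gene had the lowest level of the 5 in both libraries, 12.5 RPKM (11.5 to 13.4) in Δ3βGΔncw-1 and 39.1 RPKM (37.5 to 40.8) in Δ3βG. It was 3.14-fold lower (2.88 to 3.42), the smallest fold among the 4 enzyme genes, with a log2 ratio of −1.58, or −1.25 relative to the median gene. Of the 5988 genes, 235 had a lower log2 ratio.

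Malate synthase, encoded by acu-9, joins glyoxylate and acetyl-CoA into malate and completes the bypass. The level of acu-9 was 52.8 RPKM (50.8 to 54.8) in Δ3βGΔncw-1 and 218 RPKM (214 to 222) in Δ3βG. That was 4.13-fold lower (3.96 to 4.31), a log2 ratio of −2.03, or −1.71 relative to the median gene, with 125 genes lower still. The counting interval of its fold overlapped that of fbp-1 and no other. Malate synthase transcript exceeded isocitrate lyase transcript in both libraries, with an RPKM ratio of acu-9 to acu-3 of 4.24 in Δ3βGΔncw-1 and 5.57 in Δ3βG.

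The regulator gene acu-15 encodes a zinc cluster transcription factor that Neurospora needs to induce its acetate-use genes. It had 211 RPKM (207 to 214) in Δ3βGΔncw-1 and 163 RPKM (160 to 166) in Δ3βG, from 15633 reads in Δ3βGΔncw-1 and 12400 reads in Δ3βG. This was 1.29-fold higher (1.26 to 1.32), under the 2-fold limit, with a log2 ratio of 0.37, or 0.69 relative to the median gene. Its transcript therefore differed in the opposite direction from those of the 4 enzyme genes. The gene of the carbon catabolite repressor, cre-1 (NCU08807), which acts on sugar-repressed genes in Neurospora, had 11.04 RPKM in Δ3βGΔncw-1 and 66.3 RPKM in Δ3βG. With a log2 ratio of −2.48, cre-1 lay between acu-6 and acu-9.

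The order of the 5 levels differed between the libraries. In Δ3βGΔncw-1 it ran from acu-15 through acu-6, acu-9 and fbp-1 to acu-3, and acu-15 exceeded the next gene 3.76-fold. The levels of acu-6 and acu-9, 1.06-fold apart, had overlapping counting intervals there. In Δ3βG the order was acu-6, acu-9, acu-15, fbp-1 and acu-3, with every neighbouring pair apart beyond counting error. Together the 5 genes took 0.114% of the reads in Δ3βGΔncw-1 and 0.234% in Δ3βG.

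At 2 steps gluconeogenesis is opposed by a different enzyme of glycolysis. Phosphofructokinase, here emp-3 (NCU00629), works against fructose bisphosphatase. The level of emp-3 was 32.8 RPKM in Δ3βGΔncw-1 and 29.5 RPKM in Δ3βG, so that the RPKM ratio of fbp-1 to emp-3 was 0.814 in Δ3βGΔncw-1 and 3.48 in Δ3βG. Pyruvate kinase, here ace-8 (NCU06075), consumes the phosphoenolpyruvate that the acu-6 product makes. It had 109 RPKM in Δ3βGΔncw-1 and 65.7 RPKM in Δ3βG, and the RPKM ratio of acu-6 to ace-8 was 0.514 in Δ3βGΔncw-1 and 5.42 in Δ3βG. At both steps the glycolytic transcript was the more abundant in Δ3βGΔncw-1 and the gluconeogenic transcript in Δ3βG. The ratio was 4.28-fold lower in Δ3βGΔncw-1 at the first step and 10.5-fold lower at the second. These ratios of genes within a library do not move with the scaling of the library, but they are transcript levels and say nothing of flux.

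**Figure D2:**
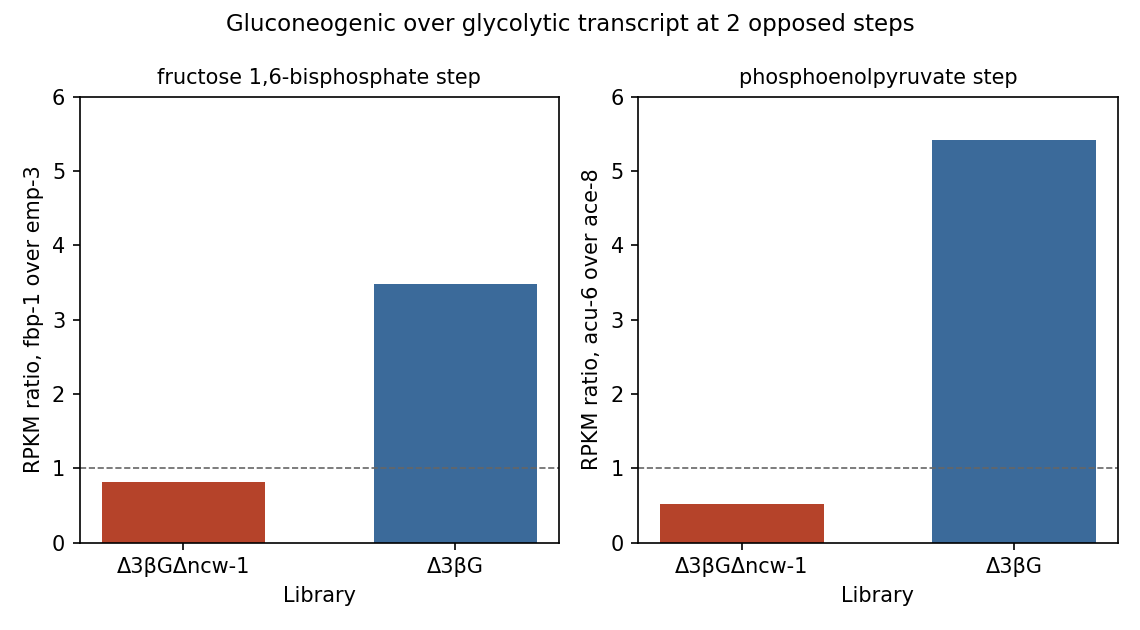
RPKM ratio of fbp-1 to emp-3 (left panel) and of acu-6 to ace-8 (right panel), with 1 bar per library, Δ3βGΔncw-1 beside Δ3βG, and a dashed line where both transcripts are equal. The bars of Δ3βGΔncw-1, at 0.814 and 0.514, lie under the line and those of Δ3βG, at 3.48 and 5.42, above it.

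The remaining reactions of gluconeogenesis are reversible and use enzymes of glycolysis. The glycolysis list here runs from hexokinase to pyruvate kinase. It therefore also holds steps that gluconeogenesis does not share, such as those of emp-3 and ace-8. Its counts and median are not those of the shared steps alone. In the list of 10 glycolysis genes, 3 lay at least 2-fold above their Δ3βG level, 0 at least 2-fold below and 7 in between, where 8.08% of all 5988 genes were that much higher. Relative to the median gene 7 of the 10 were at least 2-fold higher and 3 were neither, against 11.3% of all genes higher. Their median log2 ratio was 0.73, or 1.05 relative to the median gene. One of the 3 was NCU00575, not counted here as a reversible-step gene, with 195 RPKM in Δ3βGΔncw-1 and 82.1 RPKM in Δ3βG. Phosphoglycerate kinase (pgk, NCU07914) had 279 RPKM in Δ3βGΔncw-1 and 124 RPKM in Δ3βG. For aldolase (fba, NCU07807) the levels were 575 RPKM in Δ3βGΔncw-1 and 265 RPKM in Δ3βG. The most abundant of the list were gpd-1 (NCU01528), the glyceraldehyde phosphate dehydrogenase gene, with 1985 RPKM in Δ3βGΔncw-1 and 1194 RPKM in Δ3βG, and the enolase gene emp-7 (NCU10042), with 585 RPKM in Δ3βGΔncw-1 and 364 RPKM in Δ3βG. All 10 genes of the list had log2 ratios above 0, from 0.011 to 1.23, as had 1834 of all 5988 genes. The reversible-step genes fba, pgk, gpd-1 and emp-7 were among these 10, while acu-6 and fbp-1, which serve gluconeogenesis, were lower.

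Both other acetate-use genes that carry an acu symbol also parted from acu-3 and acu-9. Acetyl-CoA synthetase, the product of acu-5 (NCU06836), makes the acetyl-CoA that enters the glyoxylate cycle. The level of acu-5 was 64.8 RPKM (62.7 to 66.9) in Δ3βGΔncw-1 and 29.95 RPKM (28.6 to 31.4) in Δ3βG, 2.16-fold higher (2.04 to 2.29). The acetyl-CoA hydrolase gene acu-8 (NCU09770) had 37.02 RPKM in Δ3βGΔncw-1 and 31.0 RPKM in Δ3βG, a log2 ratio of 0.25. These 2 genes, the 4 enzyme genes and acu-15 make 7 genes counted here under the acetate pathway and its regulator. Transcripts for the enzymes unique to the bypass and to gluconeogenesis were at least 2-fold lower, against 11.1% of all genes. Those of acu-5, acu-8 and acu-15 were not lower.

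Citrate synthase, aconitase and malate dehydrogenase activities are shared in kind by the glyoxylate and tricarboxylic acid cycles. The tricarboxylic acid cycle list held 6 genes chosen by locus tag and is not a full list of the cycle. None of the 6 passed 2-fold in either direction, as deposited or relative to the median gene. Over all genes 11.1% were lower and 8.08% higher as deposited. Relative to the median gene 5.73% were lower and 11.3% higher, so that 0 of 6 is near the background. Their log2 ratios ran from −0.41 to 0.40 with a median of 0.085. Those with the highest levels were the malate dehydrogenase gene tca-16 (NCU06211), with 659 RPKM in Δ3βGΔncw-1 and 533 RPKM in Δ3βG, and the aconitase gene tca-3 (NCU02366), with 376 RPKM in Δ3βGΔncw-1 and 499 RPKM in Δ3βG.

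**Figure D3:**
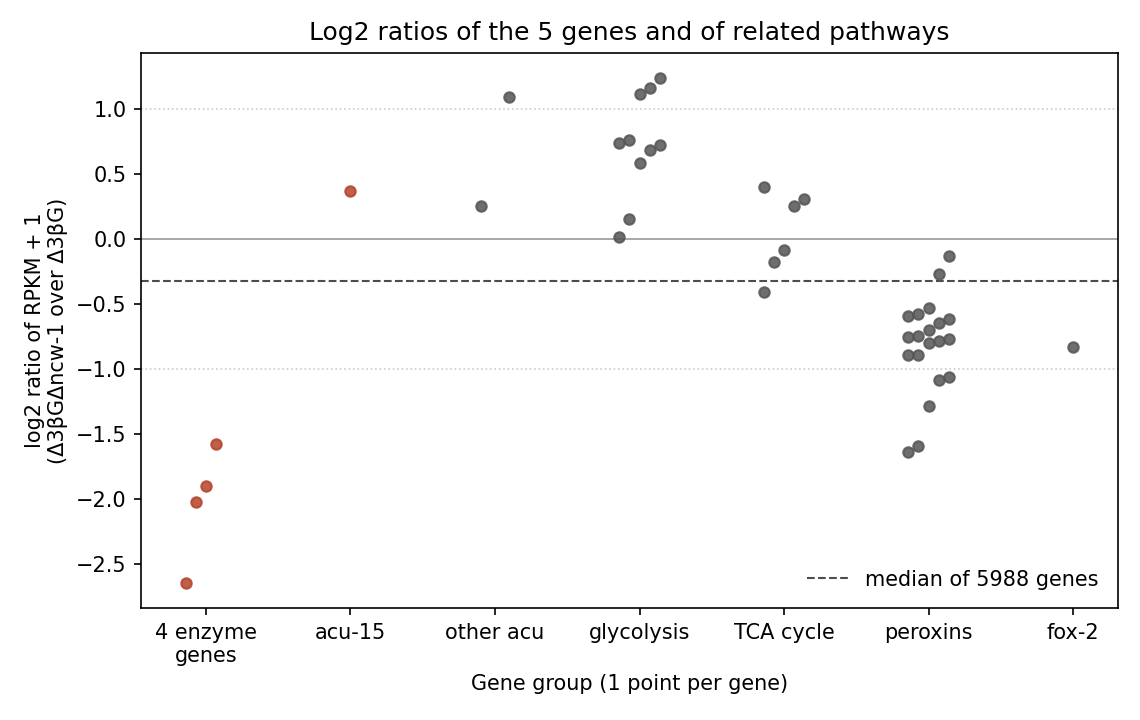
Log2 ratio of Δ3βGΔncw-1 over Δ3βG (from RPKM + 1), with 1 point per gene for the 4 enzyme genes, acu-15 and 5 related groups (TCA, tricarboxylic acid; fox-2, β-oxidation), a dashed line at the median of 5988 genes and dotted lines at 2-fold. The 4 enzyme genes lie between −2.65 and −1.58, glycolysis genes between 0.011 and 1.23, and peroxin genes between −1.64 and −0.13.

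Glyoxysomes depend on peroxins, the proteins that build peroxisomes and import their enzymes. All 20 genes with a pex symbol had a log2 ratio below 0, which was also true of 69.4% of all 5988 genes. Relative to the median gene, 18 of the 20 were lower and 2 were higher, where a median leaves 2994 of all 5988 genes on each side. Of the 20, 5 were at least 2-fold lower and 0 higher, where 11.1% of all genes were lower and 8.08% higher. Relative to the median gene 2 of the 20 remained at least 2-fold lower, against 5.73% of all genes. The list's median log2 ratio was −0.76, or −0.44 relative to the median gene, against −1.96 for the 4 enzyme genes. The lowest ratio was that of pex20 (NCU04062), whose product is a co-receptor in matrix protein import, with 3.41 RPKM in Δ3βGΔncw-1 and 12.7 RPKM in Δ3βG (3.73-fold lower, 3.12 to 4.47). It was followed by pex3 (NCU06175), which encodes a membrane assembly factor, with 5.78 RPKM in Δ3βGΔncw-1 and 19.4 RPKM in Δ3βG (3.35-fold lower, 2.93 to 3.86).

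A further 3 peroxin genes were at least 2-fold lower. The ATPase gene pex6 (NCU08373) had 7.54 RPKM in Δ3βGΔncw-1 and 19.7 RPKM in Δ3βG. For the docking factor gene pex14 (NCU03901) the levels were 43.2 RPKM in Δ3βGΔncw-1 and 92.9 RPKM in Δ3βG, and for the import receptor gene pex5 (NCU02960) 39.4 RPKM in Δ3βGΔncw-1 and 83.2 RPKM in Δ3βG. The folds of pex14 and pex5, 2.15 and 2.11, were close to the limit. The most abundant peroxin transcripts did not reach 2-fold. That of pex11 (NCU04802), which acts in peroxisome division, stood at 90.2 RPKM in Δ3βGΔncw-1 and 139 RPKM in Δ3βG, and that of the docking factor gene pex13 (NCU02618) at 52.6 RPKM in Δ3βGΔncw-1 and 98.5 RPKM in Δ3βG. Nor did fox-2 (NCU08828), which encodes the multifunctional enzyme of peroxisomal fatty acid β-oxidation, a source of acetyl-CoA for the glyoxylate cycle. Its level was 104 RPKM (102 to 107) in Δ3βGΔncw-1 and 187 RPKM (183 to 190) in Δ3βG, 1.79-fold lower (1.74 to 1.84).

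**Figure D4:**
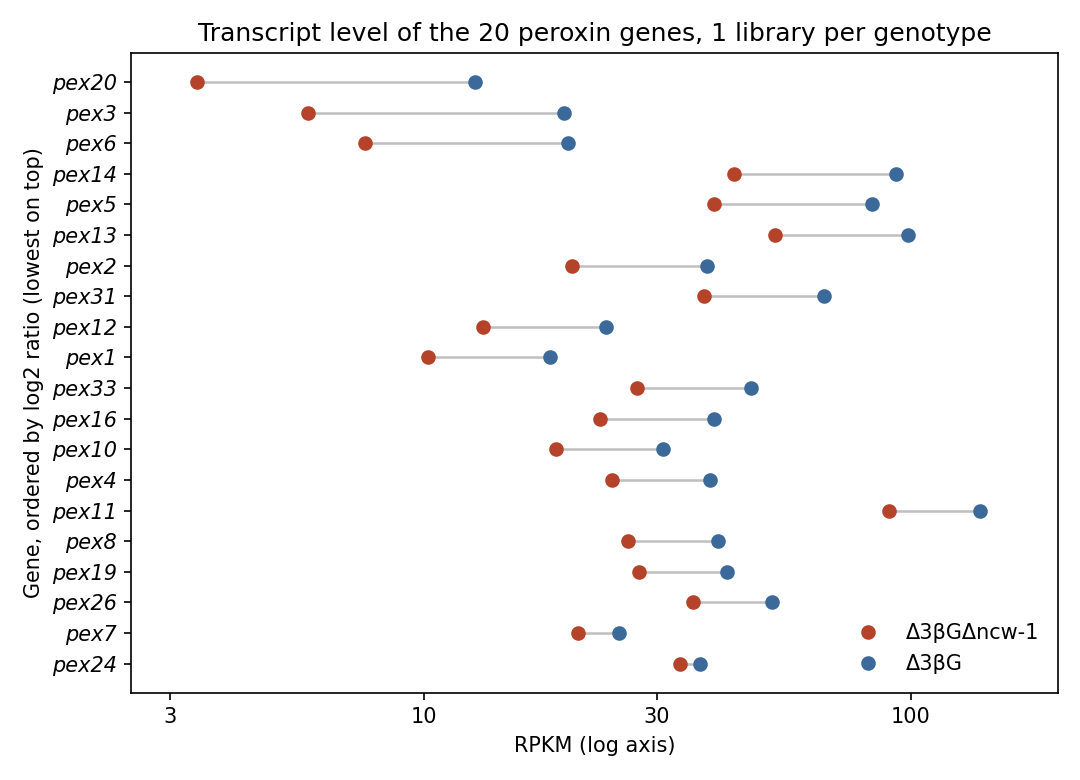
RPKM on a log axis of the 20 peroxin genes in Δ3βGΔncw-1 and in Δ3βG, 1 library each, joined by a line per gene and ordered by log2 ratio with the lowest on top. Every Δ3βGΔncw-1 point lies left of its Δ3βG point, from pex20 (3.41 against 12.7 RPKM) to pex24 (33.5 against 36.8 RPKM).

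Of the 10 genes directly beside the 5 members in the reference gene order, 7 reached 10 RPKM and 3 of these were at least 2-fold lower, against 11.1% of all genes. Relative to the median gene 1 of the 7 was, against 5.73% of all genes, and nothing is read from so few genes. No member's reference span overlapped that of a gene directly beside it. The fumarase gene tca-14 (NCU10008) lies next to acu-9 and had 139 RPKM in Δ3βGΔncw-1 and 147 RPKM in Δ3βG, a log2 ratio of −0.083 that was 0.24 relative to the median gene. On the other side of acu-9, NCU10006 had 9.47 RPKM in Δ3βGΔncw-1 and 6.01 RPKM in Δ3βG. Beside acu-6, NCU10012 had 19.0 RPKM in Δ3βGΔncw-1 and 27.2 RPKM in Δ3βG, and NCU09872 was low in both, at 2.47 RPKM in Δ3βGΔncw-1 and 1.90 RPKM in Δ3βG. Beside fbp-1, NCU04796 had 46.1 RPKM in Δ3βGΔncw-1 and 88.7 RPKM in Δ3βG, and NCU04798 had 12.05 RPKM in Δ3βGΔncw-1 and 14.6 RPKM in Δ3βG.

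On both sides of acu-3 the genes were at least 2-fold lower as deposited, and only NCU04231 remained so relative to the median gene. NCU04231 had 4.58 RPKM in Δ3βGΔncw-1 and 26.4 RPKM in Δ3βG, 5.76-fold lower (4.77 to 7.01), further than acu-3 itself. On the other side csa (NCU04229) had 4.92 RPKM in Δ3βGΔncw-1 and 10.9 RPKM in Δ3βG, which was under 2-fold relative to the median gene. Next to acu-15, NCU10237 had 7.70 RPKM in Δ3βGΔncw-1 and 18.1 RPKM in Δ3βG, opposite in direction to acu-15, and NCU06657 was low in both, at 1.33 RPKM in Δ3βGΔncw-1 and 1.14 RPKM in Δ3βG.

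Among the 1109 other genes with a symbol, those whose pair of log2 levels over the 2 libraries lay nearest to each member were also recorded. For acu-6 these were sah-1 (NCU04179), with 63.0 RPKM in Δ3βGΔncw-1 and 321 RPKM in Δ3βG at a distance of 0.22, and pyr-4 (NCU03488) at 0.43. For acu-9 they were the glucoamylase gene gla-1 (NCU01517), with 39.5 RPKM in Δ3βGΔncw-1 and 186 RPKM in Δ3βG at a distance of 0.47, and gh47-5 (NCU07067) at 0.51. For fbp-1 they were nop-1 (NCU10055) at 0.28 and the cytochrome c gene cyc-1 (NCU01808) at 0.47, and for acu-3 they were inl (NCU06666) at 0.18 and hda-1 (NCU01525) at 0.21. For acu-15, ntf2 (NCU04759) and nuo30.4 (NCU04074) lay at 0.11 each. Distances over 2 libraries rest on 2 values per gene, and many genes of like level and ratio would be near by this measure.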

How the data were processed

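Per the file headers, the authors deposited 1 table of RPKM values, with 1 column for each of the 2 libraries and 0 columns left unused here. DESeq 1.5.1, HTSeq 0.5.4p2 and TopHat2 2.0.8b are named in the submitters' processing notes without their roles. Build, annotation, read length and strand setting: not given in the sources used here. Overlapping, antisense or near-identical genes may therefore share reads. Columns were matched to libraries by the sample identifier in their names. Of 9730 locus tags, 9729 matched the NC12 reference gene table, used for symbols, gene order and spans, and 1 did not. No coordinates are given and no sequence was used.

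Library totals and whole reads were recovered from the RPKM steps. A model length of at least 50% of the span had to give whole reads in both libraries, within 1e-06 reads plus 1e-09 of the read number. All 9264 genes above 0 that matched had such a length, 8345 of them a single one, as had all 5 members. For the others the shortest was used, which widens intervals. Recovery was tested on simulated data. Fold intervals are Clopper-Pearson intervals and those of RPKM Poisson intervals, at 95% (scipy 1.17.1). The log2 ratio used a pseudocount of 1 RPKM and counts of genes a minimum of 10 RPKM in either library, without the 4 deleted genes. List medians took members of at least 1 RPKM.

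Members and lists were chosen with earlier results of these data known. The lists were other acu genes, glycolysis, the tricarboxylic acid cycle, peroxins (symbols starting with pex) and fox genes, of which only fox-2 was found. Named are the members, the genes directly beside them, the 2 nearest genes with a symbol per member, list genes past 2-fold, the 2 most abundant of each list, emp-3, ace-8, cre-1 and ncw-1. matA-1, ccg-4, eas and pex24 were added after values were seen. Alternatives were other pseudocounts, minimum values, scalings and a 4-fold limit. Planned searches of promoters and proteins were not run.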

Additional observations from a re-analysis of the deposited data

How the results depend on the processing

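With 1 library per genotype no replicate could be left out, and depth limits only the counting error. Of 94 values recomputed under the alternatives, 57 stayed within counting error, or within 1.5 times for a count of genes. The other 37 moved further, and 0 changed the sign of a difference past 2-fold. No such sign could change, because the scalings shift log2 ratios by less than these differences and a pseudocount keeps the sign. That 0 is therefore no check of the results. Under the 5 scaling and pseudocount alternatives all 4 enzyme genes stayed at least 2-fold lower. With a 50 RPKM minimum 3 of them did, because acu-3 no longer entered, and at a 4-fold limit 2 did. With a pseudocount of 5 RPKM, median centring and upper quartile scaling, the log2 ratio was −2.56, −2.33 and −2.40 for acu-6, −1.76, −1.58 and −1.66 for fbp-1, which was also the members' median, −1.34, −1.25 and −1.34 for acu-3, and −1.95, −1.71 and −1.78 for acu-9. That of acu-15 was 0.69 under median centring, 0.31 with equal sums and 0.62 under upper quartile scaling. In the same 3 settings the median was 1.05, 0.67 and 0.98 for glycolysis and 0.41, 0.029 and 0.34 for the tricarboxylic acid cycle. The peroxin median was −0.44 under median centring and −0.53 under upper quartile scaling. The count of all genes at least 2-fold lower was 425 (7.10%) with a pseudocount of 5 RPKM and 343 (5.73%) under median centring. Under upper quartile scaling it was 403 (6.58%). With a 50 RPKM minimum 240 were lower and 268 higher, but only 2023 genes entered. The share lower was then 11.9%, near the 11.1% of the main setting. At a 4-fold limit with the 10 RPKM minimum 127 (2.12%) were lower. Scaling and minimum values act on these counts by construction. Ratios between genes of 1 library are the same under centring by construction, and those at the opposed steps were counted among the 57.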
